A study of Mus musculus with 8 samples.

Results

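The genes described here are Myc, its relative Mycn, their partner Max, and the factors that make ribosomes: RNA polymerase I subunits, nucleolar proteins, rRNA processing factors, and Cad and Odc1 as metabolic targets of Myc. The list names 44 genes out of 18140 genes with a named probe set on the array. Each gene was represented by its brightest probe set that carries exactly 1 gene symbol. Of the 44, 43 had such a probe set, and Mrto4 has no value for that reason. All 43 passed the filter on low values, which kept 12394 genes, so no measured member was lost to it. The rule for membership is gene function and uses no measured value, although the list was drawn up with earlier results of these data known.

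Expression was measured on 8 Affymetrix mouse arrays of V6.5 embryonic stem cells, a mouse line, in 4 groups of 2 arrays. In every group, controls included, a lentivirus delivered the short hairpin RNA in the presence of 8 µg/ml polybrene, 4 µg/ml puromycin then selected infected cells for 4 days, and RNA was taken on day 5. The CapH2 knockdown used hairpins 3 and 4 (gene Ncaph2, a subunit of condensin II) and the Smc2 knockdown hairpins 1 and 2 (the core subunit of both condensins), so each of these arrays stands for a different hairpin. The knockdown of Smc1 (gene Smc1a, a cohesin subunit) and the GFP control, whose hairpin is directed at a jellyfish protein, were each 2 biological replicates of 1 hairpin. With 1 hairpin for Smc1 and 1 for GFP, effects of the hairpin and of its target cannot be told apart. Condensin and cohesin are ring-shaped complexes that fold chromosomes and hold sister chromatids together.

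Myc proteins bind DNA as dimers with Max at the E-box and raise transcription of genes for cell growth, among them those that build ribosomes. RNA polymerase I transcribes the rRNA precursor in the nucleolus. Box C/D and box H/ACA ribonucleoproteins then modify it, and separate sets of assembly factors cut and fold the precursors of the small and the large ribosomal subunit. Mouse embryonic stem cells divide fast, and Mycn and Myc share functions in them.

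The targeted genes fell in their own knockdown. Ncaph2 was at 12.9% of GFP with the CapH2 hairpins (limma adjusted p = 0.00115), Smc2 at 32.1% with the Smc2 hairpins (adjusted p = 0.0154), and Smc1a at 13% with the Smc1 hairpin (adjusted p = 7.81e-05). All 10 embryonic stem cell markers lay above the array median on every array. In the Smc1 knockdown Pou5f1, Nanog and Sox2, core transcription factors of these cells, fell by 0.82, 0.73 and 0.88 on the log2 scale (adjusted p = 0.0340, 0.00525 and 0.0143), 5 of the 10 markers were lower and 1 was higher. The summed intensity of the 10 was 89380 and 104600 on the Smc1 arrays and 114000 to 133200 on the other arrays, while the summed intensity of 10 trophectoderm markers, 9 of them tested, was 55050 and 40200 on the Smc1 arrays and 10830 to 27730 elsewhere. Of the 9, 2 were called higher and 1 lower with Smc1. Summed neural markers were 9198 and 7597 on the Smc1 arrays and 13660 to 15370 elsewhere, but the 8 tested went both ways, with 3 called higher, 4 lower and changes of -2.29 to 1.33. Fibroblast and endoderm markers summed to at most 2211 and 7603 on any array. With Smc1, 60% of the stem cell, 33.3% of the trophectoderm and 87.5% of the neural markers tested were called. The shares were 18.2% for fibroblast and 20% for endoderm markers, beside 14% of all genes (9.3% higher and 4.69% lower). These shifts accompany every Smc1 result below, and their part in those results was not tested.

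Values are linear intensities. They are given for each member in the order GFP replicates 1 and 2, CapH2 hairpins 3 and 4, Smc2 hairpins 1 and 2, and Smc1 replicates 1 and 2. Changes are log2 differences of group means of log2(intensity + 16), with the limma standard error (SE). A gene is called where the Benjamini-Hochberg adjusted p over all 12394 genes is below 0.05. The 3 comparisons against GFP share the GFP arrays, so their values are set side by side and not correlated. An intensity also depends on the probes, so levels of different genes are not compared.

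In the Smc1 knockdown 1 of the 43 measured members was called, Brix1, which rose, and 0 were called lower by limma. This is 2.33% of the members, where 14% of all genes tested were called, 9.3% higher and 4.69% lower. The Brix1 call was lost without any 1 of the Smc1 or GFP arrays. Fits without 1 array leave 1 array in a group and also change the share of all genes called. Their counts of calls are therefore not compared. At an unadjusted p below 0.05, 2 members were higher and 7 lower, beside 18.7% and 12.6% of all genes and 31.2% in either direction. The median member change was -0.13, with 27 of 43 members below 0 where 47.7% of all genes were, and the median over all genes was 0.03. Single arrays moved this median: it was -0.02 without GFP replicate 2, with 23 of 43 below 0, and -0.09 without Smc1 replicate 1, with 25 below 0. Both Smc1 arrays lay below both GFP arrays for 16 members and above both for 9, where 28.4% and 34.5% of all genes did so. Members are not replicates of a condition, so these shares describe the list and do not test it.

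In the CapH2 knockdown 0 of 43 members were called by limma (2 at an unadjusted p below 0.05, both higher), where 0.0161% of all genes were called, 0.00807% in each direction. At that unadjusted p 12.6% of all genes passed, 7.56% higher and 5.07% lower. Changes were above 0 for 32 members, beside 51.3% of all genes, with a median of 0.19 beside 0.01 for all genes. Both CapH2 arrays lay above both GFP arrays for 19 members and below for 4, beside 25.3% and 21.9% of all genes. In the Smc2 knockdown 0 of 43 were called by limma (2 at an unadjusted p below 0.05, both higher), again beside 0.0161% of all genes, 0.00807% in each direction. The unadjusted p was passed by 12.6% of all genes, 7.28% higher and 5.31% lower. There 33 changes were above 0, beside 49.5% of all genes, with a median of 0.16 beside -0.01, but only 7 members lay above and 1 below both GFP arrays, beside 23.1% and 21.7% of all genes. The direct comparison of CapH2 with Smc2 called 0 members by limma, where 0.00807% of all genes were called, and 1 member, Nop58, was lower at an unadjusted p below 0.05, beside 0.331% of all genes (-0.31, SE 0.133, adjusted p = 1).

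**Figure D1:**
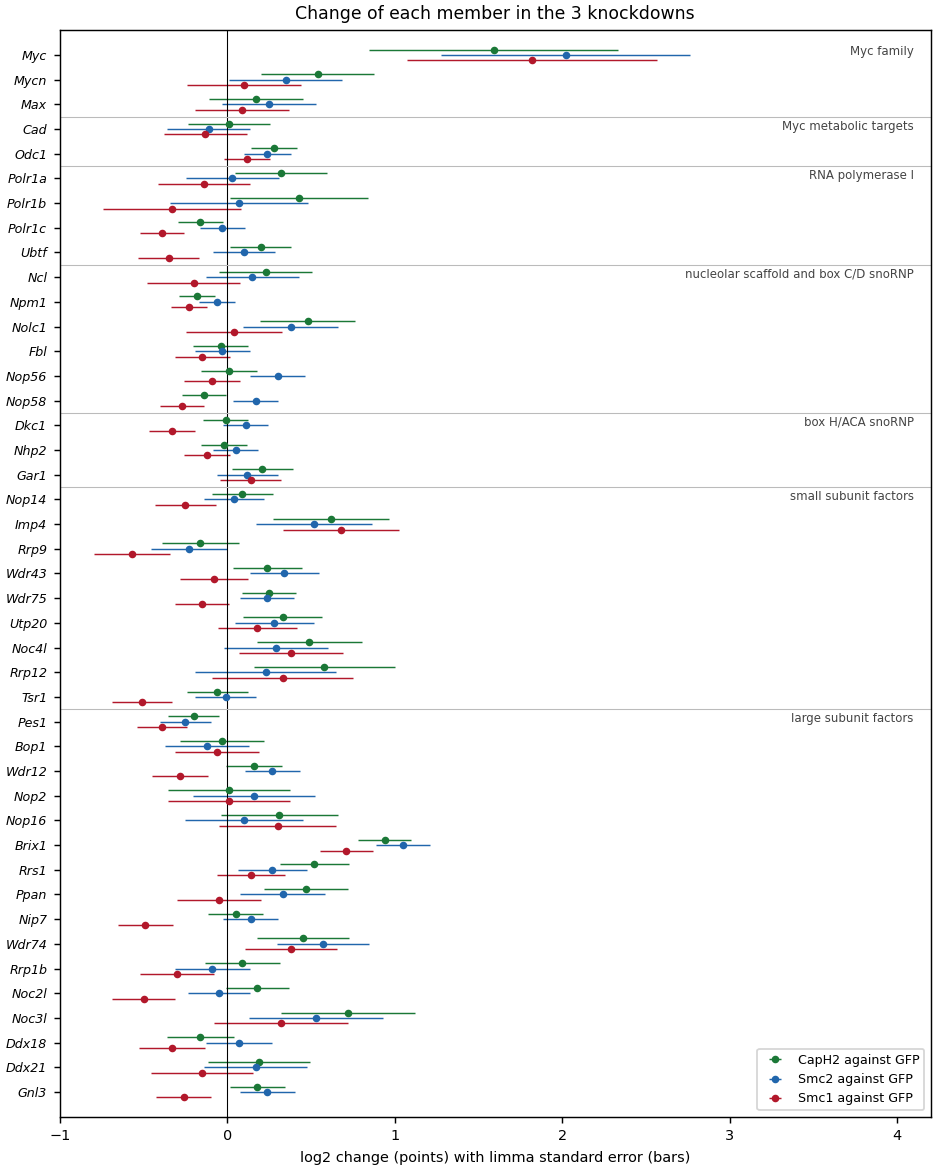
Log2 change of the 43 measured members against GFP (horizontal axis) for CapH2 (green), Smc2 (blue) and Smc1 (red), grouped by role. Points are differences of means of 2 arrays and bars limma standard errors. Myc has the widest bars, Brix1 lies right of 0 in all 3 knockdowns at 0.94, 1.05 and 0.71, and most red points lie left of the green and blue points of the same gene.

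Myc, the founding member of the family, read 35.8 and 77.9 in GFP, 419.8 and 84.95 with CapH2, 512.9 and 135.1 with Smc2, and 358.3 and 145.1 with Smc1. Every knockdown array lay above both GFP arrays, and within each knockdown 1 array was far above the other. GFP replicate 1 was below its array's median of 69.4 and replicate 2 just above its own of 74.31, so the control level of Myc is close to the dim range of these arrays. The changes were 1.59 with CapH2, 2.02 with Smc2 and 1.82 with Smc1, each with an SE of 0.744. None was called (limma adjusted p = 0.407, 0.326 and 0.128). The 95% interval of the Smc1 change ran from 0.16 to 3.47. Across 20 alternative settings the Smc1 change ran from -0.23 to 2.42, with 1 setting of the other sign. That setting, at -0.23, was the Actb ratio described below as a covariate. Across 19 settings the CapH2 change ran from -0.13 to 2.64, with 1 of the other sign, again the Actb ratio as a covariate (-0.13). The Smc2 change ran from 1.12 to 2.92 across 19 settings, with 0 of the other sign. The difference between Smc1 and the condensin knockdowns was 0.01 (SE 0.644), with an interval of -1.42 to 1.45, which leaves room for a difference in either direction.

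Mycn, a paralogue that takes the same role in embryonic cells, read 4174 and 5052 in GFP, 8029 and 5595 with CapH2, 8739 and 3947 with Smc2, and 4054 and 5966 with Smc1. CapH2 arrays were above both control arrays, whereas the Smc2 and the Smc1 arrays lay on either side of the controls. Changes were 0.54, 0.35 and 0.10 (SE 0.338), none called by limma (adjusted p = 0.522, 0.676 and 0.870).

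Max, the obligate partner of Myc in DNA binding, read 298.8 and 253.9 in GFP, 346.3 and 281.6 with CapH2, 358.4 and 306.2 with Smc2, and 221.0 and 390.2 with Smc1. Only the Smc2 arrays lay above both control arrays, and the Smc1 replicates fell on either side of them. Changes were 0.17, 0.25 and 0.09 (SE 0.280), all uncalled.

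Among the metabolic targets, Cad, which carries the initial enzymes of pyrimidine synthesis, read 2790 and 3938 in GFP, 3462 and 3207 with CapH2, 3327 and 2849 with Smc2, and 2359 and 3897 with Smc1. All knockdown groups overlapped the control. Odc1, the rate-limiting enzyme of polyamine synthesis, read 13890 and 17340 in GFP, 18690 and 19140 with CapH2, 20230 and 16560 with Smc2, and 16580 and 17110 with Smc1. The CapH2 arrays exceeded both control arrays, with a change of 0.28 (SE 0.138, limma adjusted p = 0.418), and the other groups overlapped the control. A dimmer Odc1 probe set, with a mean intensity of 1379, changed by 0.78, 0.84 and 0.49 with CapH2, Smc2 and Smc1. The remaining one, with a mean of 17220, changed by 0.17, 0.25 and 0.10.

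Genes of RNA polymerase I all had a negative Smc1 change, between -0.39 and -0.14 for the 4 members, and none was called. Of all genes, 47.7% had a Smc1 change below 0 and 14% were called. Polr1c, a subunit that polymerase I shares with polymerase III, read 7056 and 6354 in GFP, 6011 and 5947 with CapH2, 6935 and 6234 with Smc2, and 4968 and 5266 with Smc1. Its Smc1 arrays were the lowest of all 8, at -0.39 (SE 0.134, limma adjusted p = 0.0805). Ubtf, which binds the rRNA gene promoter and recruits the polymerase, read 1441 and 1416 in GFP, 1739 and 1552 with CapH2, 1707 and 1368 with Smc2, and 1055 and 1187 with Smc1. Both Smc1 arrays were again below all others, while both CapH2 arrays were above the control. The Ubtf changes were 0.20, 0.10 and -0.35 (SE 0.183), all uncalled, and Smc1 minus the condensin knockdowns was -0.50 (SE 0.158, adjusted p = 0.0890). Polr1a and Polr1b, the catalytic core subunits, overlapped the control in all 3 knockdowns, with Smc1 changes of -0.14 and -0.33.

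Of the nucleolar scaffold and box C/D proteins, 5 of 6 had a Smc1 change below 0, beside 47.7% of all genes. By limma 0 were called, beside 14% of all genes (0 at an unadjusted p below 0.05, beside 31.2%). Nop58, a core protein of the box C/D particles that guide rRNA methylation, read 6291 and 5776 in GFP, 5553 and 5398 with CapH2, 7195 and 6438 with Smc2, and 5102 and 4925 with Smc1. The Smc2 arrays lay above and the CapH2 and Smc1 arrays below both control arrays, a pattern no other member showed. Changes were -0.14, 0.17 and -0.27 (SE 0.133), with limma adjusted p = 0.676, 0.594 and 0.207. Npm1, an abundant nucleolar chaperone, read 33620 and 27810 in GFP, 26530 and 27430 with CapH2, 29660 and 29010 with Smc2, and 25590 and 26600 with Smc1. The CapH2 and Smc1 arrays were below both control arrays, by -0.18 and -0.23 (SE 0.108), uncalled. Ncl, nucleolin, and Nolc1, a chaperone of the small nucleolar particles, were above GFP on both CapH2 arrays, with changes of 0.23 and 0.48. Fbl, the methyltransferase of the box C/D particles, and Nop56, another core protein of them, overlapped the control in every knockdown, with Smc1 changes of -0.15 and -0.09. Their other probe sets changed by -0.43 (Fbl) and 0 (Nop56) with Smc1.

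In the box H/ACA particles, which guide conversion of uridine to pseudouridine, Dkc1 is the enzyme. It read 11080 and 9138 in GFP, 9556 and 10430 with CapH2, 10380 and 11300 with Smc2, and 7765 and 8204 with Smc1. Both Smc1 arrays lay below the control arrays and the condensin groups overlapped them, with a Smc1 change of -0.33 (SE 0.135, limma adjusted p = 0.124). Gar1, a core protein of the same particles, read 3284 and 3741 in GFP, 4179 and 3953 with CapH2, 4529 and 3210 with Smc2, and 3766 and 3987 with Smc1. The CapH2 and Smc1 arrays were above the control, the latter by 0.14 (SE 0.182), and Nhp2, the remaining listed member of this role, overlapped it throughout.

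The 9 small subunit factors went different ways in the Smc1 knockdown, with 5 below both GFP arrays and 3 above both, beside 28.4% and 34.5% of all genes. Of the 9, 0 were called by limma, beside 14% of all genes. Rrp9 and Tsr1 were lower at an unadjusted p below 0.05, as were 12.6% of all genes. Imp4, part of the complex that joins the small nucleolar RNP cleaving the precursor, read 955.9 and 1204 in GFP, 2192 and 1260 with CapH2, 2240 and 1059 with Smc2, and 1749 and 1711 with Smc1. It was above the control on both CapH2 and both Smc1 arrays, while Smc2 hairpin 2 was inside the control range. Changes were 0.62, 0.52 and 0.68 (SE 0.346), with limma adjusted p = 0.472, 0.542 and 0.213. The other probe sets of Imp4 changed by -0.03 and 0.38 with Smc1.

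Rrp9, a protein of that same RNP, read 913.3 and 1198 in GFP, 952.9 and 919.3 with CapH2, 1083 and 731.0 with Smc2, and 709.4 and 687.1 with Smc1. The Smc1 arrays were the lowest, at -0.57 (SE 0.228, limma adjusted p = 0.120). Tsr1, which acts late in small subunit maturation, read 6068 and 5580 in GFP, 6237 and 4988 with CapH2, 6725 and 4977 with Smc2, and 4308 and 3856 with Smc1. Its Smc1 arrays also lay below all 6 others, at -0.51 (SE 0.181, limma adjusted p = 0.0862), while each condensin knockdown had 1 array above and 1 below both control arrays. Nop14 (-0.25), Wdr43 (-0.08) and Wdr75 (-0.15), components of the early small subunit processome, were below both control arrays with Smc1. Utp20 (0.18), a large scaffold of the processome, and Noc4l (0.38), which binds Nop14, were above them, and Rrp12 (0.33), an export factor, overlapped them.

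Large subunit factors held both called members. Brix1, which assembles large subunit precursors, read 4075 and 4092 in GFP, 8598 and 7166 with CapH2, 9567 and 7465 with Smc2, and 6976 and 6404 with Smc1. All 6 knockdown arrays were above both control arrays, and the control arrays were closer to each other than the arrays of any knockdown. The changes were 0.94 with CapH2, 1.05 with Smc2 and 0.71 with Smc1 (SE 0.159), or 192%, 207% and 163% of GFP. Only the Smc1 change was called (limma adjusted p = 0.0184), while the larger CapH2 and Smc2 changes had unadjusted p of 0.000151 and 6.33e-05 and adjusted p of 0.153 and 0.131 over all genes. An adjusted p depends on how many other genes move in the same comparison, and the call in Smc1 went with the smallest of the 3 changes. Smc1 minus the mean of the condensin knockdowns was -0.28 (SE 0.138, adjusted p = 0.248). The other Brix1 probe set, with a mean intensity of 516.8, changed by 0.33, 0.65 and 0.34 with CapH2, Smc2 and Smc1. Averaging the probe sets gave 0.52 in Smc1 and no call (adjusted p = 0.101), and the call was lost without the intensity trend (0.0624) or with the Actb ratio described below as a covariate (0.42, adjusted p = 0.143). The call was also lost without Smc1 replicate 1 (adjusted p = 0.151), Smc1 replicate 2 (0.0558), GFP replicate 1 (0.111) or GFP replicate 2 (0.0793), with changes of 0.65 to 0.77.

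Nip7, a small protein needed for large subunit maturation, read 7462 and 6849 in GFP, 7962 and 6915 with CapH2, 8964 and 6885 with Smc2, and 5441 and 4723 with Smc1. The 2 Smc1 arrays lay below all 6 others, and the CapH2 and Smc2 arrays overlapped the control. Smc1 minus the mean of the condensin knockdowns was -0.59 (SE 0.141, limma adjusted p = 0.0342), or 66.5% of their level, and Nip7 was the only member called in that comparison. Against GFP the Smc1 change was -0.49 (SE 0.163, adjusted p = 0.0707). The other Nip7 probe set, with a mean intensity of 331.9, changed by -0.97, -0.23 and -0.11 with Smc1, CapH2 and Smc2. Leaving out any 1 array other than Smc2 hairpin 2 ended the call, with changes of -0.69 to -0.49 and adjusted p of 0.0556 to 0.212. So did testing all genes without the filter (0.0575), leaving out the intensity trend (0.101) and fitting only the groups compared (0.0557). In cell populations such as these, fewer cells that make an RNA and less of the RNA per cell cannot be told apart.

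The promoters of the called members are shown because Myc and Max bind the E-box CACGTG and these stretches could hold it. Sequences are from RefSeq on GRCm38.p6, read 5′ to 3′ on the gene's strand, and cover the 150 bases directly before the annotated start. The Brix1 stretch is chr15:10485938-10486087 on the minus strand and the Nip7 stretch chr8:107056727-107056876 on the plus strand.
Brix1: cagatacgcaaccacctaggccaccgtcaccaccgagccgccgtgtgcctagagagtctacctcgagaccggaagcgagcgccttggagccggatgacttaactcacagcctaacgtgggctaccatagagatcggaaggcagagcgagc
Nip7: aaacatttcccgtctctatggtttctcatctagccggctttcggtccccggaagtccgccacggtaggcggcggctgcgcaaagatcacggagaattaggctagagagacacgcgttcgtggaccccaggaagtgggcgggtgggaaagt
Neither stretch contains CACGTG, and neither does the whole window of 300 bases, 250 before to 50 after the start. That says only that these letters are not in these windows.

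The RefSeq table held windows for 38 of the 44 members, and 7 of the 38 contained CACGTG (18.4%), which reads the same on both strands. Of all 27025 genes listed there, 8.09% did. The 7 were Imp4, Max, Nop2, Pes1, Tsr1, Utp20 and Wdr43. Imp4 and Nop2, an rRNA methyltransferase of the large subunit, show it upstream of the start, 121 and 60 bases before it, in capitals below. Their stretches are chr1:34439681-34439740 and chr6:125131796-125131855, both on the plus strand.
Imp4: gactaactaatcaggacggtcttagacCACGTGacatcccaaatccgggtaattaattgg
Nop2: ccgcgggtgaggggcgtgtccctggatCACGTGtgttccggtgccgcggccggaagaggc
The median Smc1 change of the 7 members with the letters was 0.01 and that of the 30 measured members without them -0.15, with 0.17 and 0.20 for CapH2 and 0.25 and 0.15 for Smc2. A match describes the letters of the window and is neither a binding site nor a cause.

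**Figure D2:**
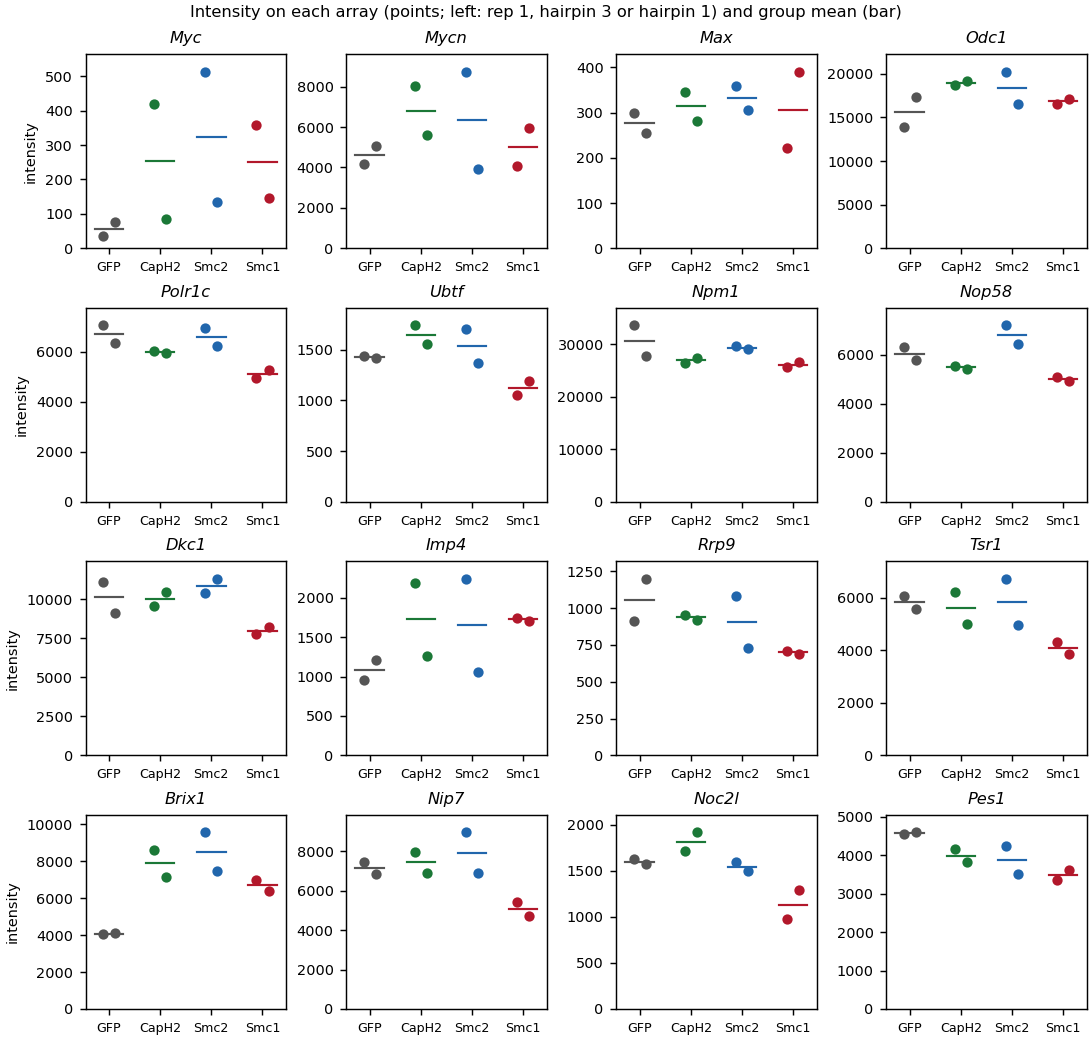
Intensity (vertical axis, linear, from 0) of 16 members on each array, with GFP in grey, CapH2 in green, Smc2 in blue and Smc1 in red. Points are arrays, the left point being replicate 1, hairpin 3 or hairpin 1, and bars are group means. Brix1 is higher in all knockdowns than in GFP, and Nip7, Tsr1, Dkc1, Polr1c and Ubtf have their lowest points on the Smc1 arrays.

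Noc2l, a nucleolar factor of early large subunit assembly, read 1631 and 1570 in GFP, 1711 and 1917 with CapH2, 1592 and 1497 with Smc2, and 977.3 and 1290 with Smc1. Its Smc1 arrays were the lowest and its CapH2 arrays above the control. The Smc1 change was -0.50 against GFP (SE 0.187, limma adjusted p = 0.0980) and -0.57 against the condensin knockdowns (SE 0.162, adjusted p = 0.0621). Pes1, which forms a complex with Bop1 and Wdr12 on the large subunit precursor, read 4556 and 4598 in GFP, 4166 and 3815 with CapH2, 4241 and 3508 with Smc2, and 3360 and 3606 with Smc1. It was the only member below both control arrays in all 3 knockdowns, at -0.20, -0.25 and -0.39 (SE 0.152), none called (limma adjusted p = 0.596, 0.505 and 0.111). The other Pes1 probe set, with a mean intensity of 183.9, changed by 0.61 with Smc1. Of its partners, Wdr12 was below both control arrays with Smc1 (-0.28) and above them with Smc2 (0.27), and Bop1 overlapped them throughout.

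The remaining large subunit factors were uncalled in every comparison. Gnl3, nucleostemin, a nucleolar GTPase abundant in stem cells, was below both control arrays with Smc1 (-0.26) and above them with CapH2 (0.18), and Ddx18, an RNA helicase, was below them with Smc1 (-0.33). Noc3l (0.32), Nop16 (0.30) and Wdr74 (0.38) were above both control arrays with Smc1. Rrs1, which brings the smallest large-subunit rRNA into the precursor, and Ppan, a relative of Brix1, were above both with CapH2 (0.52 and 0.47). Rrs1 had an unadjusted p of 0.0288 and an adjusted p of 0.364 in limma. Ddx21, a helicase that links polymerase I transcription and processing, and Nop2 overlapped the control in all 3 knockdowns, and Rrp1b did so with Smc2 and Smc1. Other probe sets of 3 of these genes gave different values. The second Rrp1b probe set, of similar brightness, changed by 1.11, 0.84 and 0.60 with CapH2, Smc2 and Smc1, the second of Ddx21 by 1.25, 0.67 and 0.91, and the second of Noc3l by -0.38, -0.36 and -0.52.

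Most members had a lower mean level with Smc1 than with the condensin knockdowns. The change was below 0 for 39 of 43, where 47.1% of all genes were below 0, and the median was -0.28 beside 0.02 for all genes. That corresponds to 82.1% of the condensin level for the median member. The size rested on single arrays. The median was -0.12 without Smc2 hairpin 1, with 34 of 43 members below 0. It was -0.39 without Smc2 hairpin 2, with 43 below 0. In settings added after seeing the data, the median was -0.08 with 28 below 0 without both CapH2 hairpin 3 and Smc2 hairpin 1, and without both CapH2 hairpin 4 and Smc2 hairpin 2 it was -0.48. Both Smc1 arrays were below all 4 condensin arrays for 17 members and above all 4 for 0, where 14.6% and 20.5% of all genes were. Single calls were few: 1 of 43 by limma, beside 7.75% of all genes (5.53% higher and 2.23% lower), and 10 lower and 0 higher at an unadjusted p below 0.05, beside 9.04% and 14.6% of all genes and 23.6% in either direction. After Nip7 the smallest adjusted p values were those of Noc2l, Wdr12 (-0.50, SE 0.144, 0.0660), Gnl3 (-0.47, SE 0.142, 0.0756) and Dkc1 (-0.38, SE 0.117, 0.0770). By role the medians were -0.40 for RNA polymerase I, -0.31 for small subunit factors, -0.29 for large subunit factors, -0.26 for the nucleolar and box C/D proteins, -0.14 for box H/ACA, -0.12 for the Myc family and -0.11 for the metabolic targets. The Nip7 call was lost without any single array other than Smc2 hairpin 2. Such fits leave 1 array in a group, so their counts of calls are not compared.

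**Figure D3:**
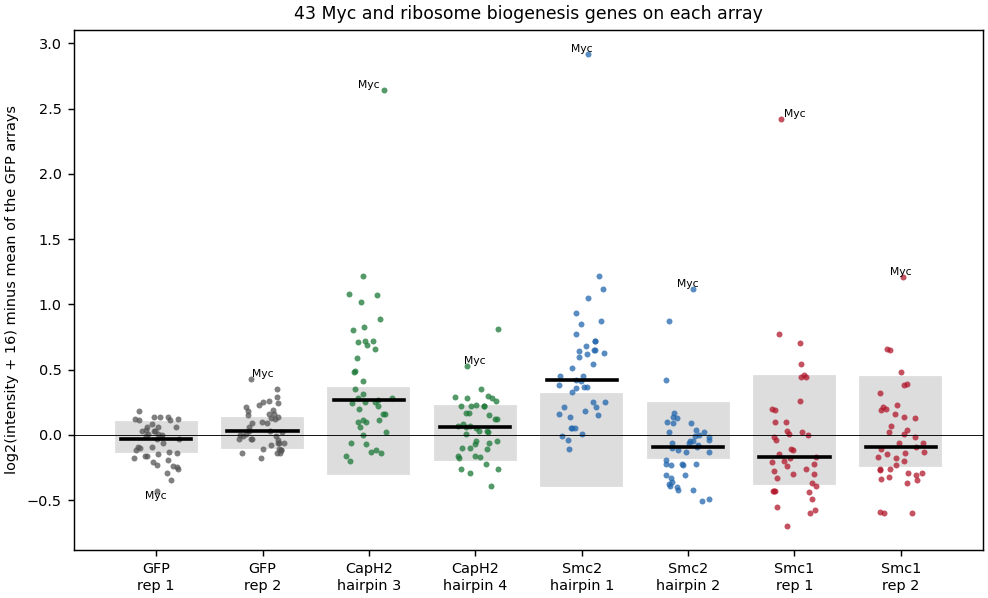
Deviation of each of the 43 members from its GFP mean (vertical axis, log2) on each of the 8 arrays, with points for genes, black bars for the member median and grey boxes from the lower to the upper quartile of all genes tested. The member median is 0.27 and 0.42 on CapH2 hairpin 3 and Smc2 hairpin 1, but 0.06 and -0.09 on the other hairpin of each knockdown, and -0.17 and -0.09 on the Smc1 arrays.

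Members also differed between the hairpins of the same knockdown. With CapH2, 39 of 43 members were higher on hairpin 3 than on hairpin 4 (90.7%), where 51.4% of all genes were, and the median difference was 0.21. With Smc2, 42 of 43 were higher on hairpin 1 than on hairpin 2 (97.7%), where 44.8% of all genes were, and the median difference was 0.46. The replicates of 1 hairpin showed no such split, with 25 of 43 members higher on Smc1 replicate 1 (58.1%) and 18 of 43 on GFP replicate 1 (41.9%). A difference of at least 1.5-fold in favour of hairpin 3 was seen for 9 members and in favour of hairpin 1 for 18, and 0 members differed by that much the other way. Of all 12394 genes, 1171 differed by that much in favour of CapH2 hairpin 3 and 972 in favour of hairpin 4, and 973 in favour of Smc2 hairpin 1 and 1785 in favour of hairpin 2. With 1 array per hairpin there is no test of these differences, and hairpin and array cannot be told apart.

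Myc differed most, by 2.11 between the CapH2 hairpins and 1.81 between the Smc2 hairpins, on the log2 scale. Rrp12 (1.01 and 1.24), Noc3l (1.01 and 1.18), Nop16 (0.82 and 1.04), Polr1b (0.80 and 1.12) and Nop2 (0.80 and 1.12) also differed widely, and these span polymerase I and both subunits. The box H/ACA proteins had medians of 0.08 and 0.19, with Dkc1 lower on CapH2 hairpin 3 and Smc2 hairpin 1 (-0.13 and -0.12). The 39 members higher on CapH2 hairpin 3 were all higher on Smc2 hairpin 1 too, while 31.3% of all genes were higher on both. Across the 43 members the CapH2 and Smc2 hairpin differences had a Pearson r of 0.824, and across all 12394 genes 0.41. These are descriptions across genes measured on the same 4 arrays, and the labels do not pair the hairpins of CapH2 with those of Smc2.

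**Figure D4:**
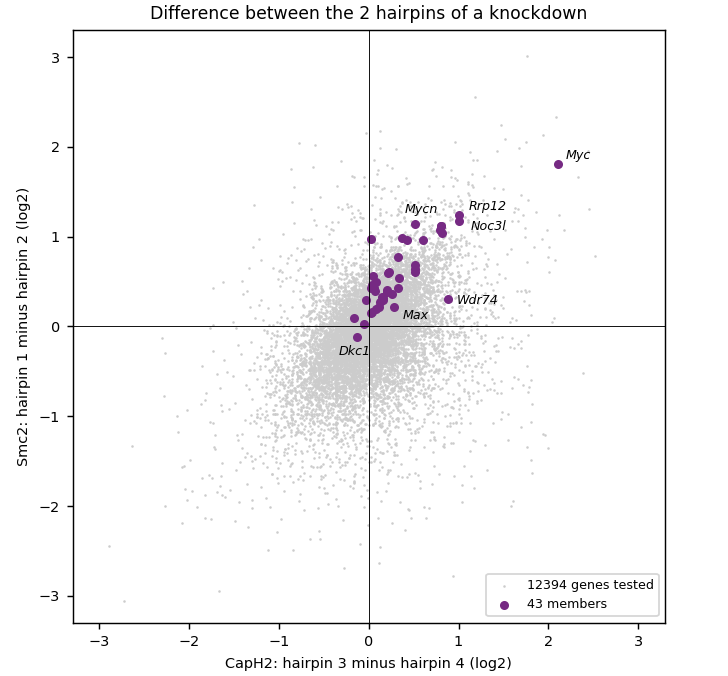
Difference between the hairpins of the CapH2 knockdown (horizontal axis, log2) and of the Smc2 knockdown (vertical axis, log2) for 12394 genes (grey) and the 43 members (purple). Of the 43 members 39 lie in the upper right, with Myc farthest out at 2.11 and 1.81. Odc1, Npm1 and Noc2l lie just left of 0 on the horizontal axis, and Dkc1 is the 1 member at the lower left, at -0.13 and -0.12.

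The members' position against GFP depended on single arrays, each of a different hairpin in the condensin knockdowns. Without CapH2 hairpin 3 the member median in the CapH2 comparison was 0.06 and without hairpin 4 it was 0.27. Without Smc2 hairpin 1 the median in the Smc2 comparison was -0.09, with 30 of 43 members below 0, and without hairpin 2 it was 0.42, with 3 below 0. Without GFP replicate 1 the Smc2 median was 0.08. The control probe sets for Actb, whose ratio of 3′ to 5′ signal is used as a sign of RNA quality, moved with the split: the ratio was 1.67 on CapH2 hairpin 3 and 1.98 on hairpin 4, 1.82 on Smc2 hairpin 1 and 2.18 on hairpin 2, 1.70 and 1.84 on the Smc1 arrays and 2.18 and 2.04 on the GFP arrays. With that ratio as a covariate the member medians were -0.10 for CapH2, 0.04 for Smc2, -0.43 for Smc1 and -0.44 for Smc1 against the condensin knockdowns. Marker lists of other cell types also differed between hairpins. Neural markers were higher on CapH2 hairpin 3 for 6 of 8 and on Smc2 hairpin 1 for 7 of 8, with median differences of 0.08 and 0.48, while the medians were 0.54 and -0.42 for endoderm, 0.36 and -0.61 for trophectoderm and 0.30 and -0.08 for fibroblast markers. The same ratio for Gapdh was 0.79 and 0.863 on CapH2 hairpins 3 and 4, and 0.813 and 0.845 on Smc2 hairpins 1 and 2. It was 0.833 and 0.862 on the Smc1 arrays and 0.864 and 0.857 on the GFP arrays. The Smc1 arrays, with Actb ratios of 1.70 and 1.84, had member medians of -0.17 and -0.09. These arrays also differ by knockdown and marker levels. The part of RNA quality and of other cell types in the split was not tested.

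A wider list of ribosome biogenesis genes, 106 listed and 100 tested, is given by array for comparison. In CapH2 83 of 100 were higher on hairpin 3 and in Smc2 92 of 100 on hairpin 1, with medians of 0.27 and 0.41. Against GFP their medians were 0.19 with CapH2, 0.18 with Smc2 and -0.04 with Smc1. In the Smc1 knockdown 0 were called higher and 4 lower by limma, beside 9.3% and 4.69% of all genes. In either condensin knockdown 0 were called, beside 0.0161% of all genes. At an unadjusted p below 0.05, 9 were higher and 2 lower with CapH2, beside 7.56% and 5.07% of all genes. With Smc2, 8 were higher and 1 lower at that p, beside 7.28% and 5.31% of all genes. Against the condensin knockdowns 83 of 100 had a Smc1 change below 0, beside 47.1% of all genes, and the median was -0.20. There 4 were called lower and 0 higher, beside 2.23% and 5.53% of all genes.

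Ddx52, a helicase of the small subunit processome, had the largest fall of these. It read 1199 and 1071 in GFP, 1462 and 1242 with CapH2, 1438 and 1262 with Smc2, and 564.6 and 455.8 with Smc1. Its Smc1 arrays were well below the other 6, and its condensin arrays were above both control arrays. It changed by -1.14 against GFP (SE 0.196, limma adjusted p = 0.00728) and by -1.38 against the condensin knockdowns (SE 0.169, adjusted p = 0.00355). The other 3 called against GFP were Senp3, a SUMO protease of large subunit maturation (-0.66, adjusted p = 0.0183), Nob1, the nuclease that trims the small subunit rRNA (-0.67, 0.0284), and Ruvbl2, an ATPase used in assembly of small nucleolar particles (-0.94, 0.0407). Against the condensin knockdowns Senp3 (-0.52, adjusted p = 0.0381), the nucleolar protein Surf6 (-0.82, 0.0406) and the polymerase I subunit Polr1h, named Znrd1 on the array (-0.60, 0.0423), were lower.

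Calls were also made among the proteins around Myc itself. Of 18 partners, antagonists, cofactors and turnover factors, 2 were called higher and 3 lower with Smc1 (27.8%), beside 9.3% and 4.69% of all genes. In either condensin knockdown 0 were called by limma, beside 0.0161% of all genes. At an unadjusted p below 0.05, 3 were higher and 2 lower with CapH2, beside 7.56% and 5.07% of all genes. With Smc2, 2 were higher and 2 lower at that p, beside 7.28% and 5.31% of all genes. Mxd4, an antagonist that takes Max away from Myc, read 14.23 and 46.18 in GFP, 128.4 and 44.66 with CapH2, 60.62 and 66.66 with Smc2, and 279.3 and 244.2 with Smc1. The Smc1 arrays were above all others, and both GFP arrays were below their array medians, so the size of the change rests on a dim control. The change was 2.68 (SE 0.474, limma adjusted p = 0.00785), and against the condensin knockdowns 1.68 (SE 0.411, adjusted p = 0.0367). CapH2 hairpin 4 and both Smc2 arrays were also below their array medians of 68.89, 62.47 and 68.94. The change against the condensin knockdowns therefore rests on dim values too.

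Mxd3, another antagonist of the same family, went the other way, with 884.4 and 879.9 in GFP, 243.6 and 405.4 with CapH2, 379.5 and 494.0 with Smc2, and 284.5 and 385.8 with Smc1. All knockdown arrays were below both control arrays. It changed by -1.37 with Smc1 (SE 0.273, limma adjusted p = 0.0117), and by -1.44 and -1.0 with CapH2 and Smc2, which were not called (adjusted p = 0.153 and 0.232). The Smc1 change differed from the condensin mean by -0.15 (SE 0.236, adjusted p = 0.759).

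Mga, a very large Max partner that represses, read 4087 and 4142 in GFP, 2685 and 4056 with CapH2, 2784 and 3309 with Smc2, and 2009 and 2100 with Smc1. The Smc1 arrays were the lowest, at -1.0 (SE 0.202, limma adjusted p = 0.0128). Bptf, a chromatin remodelling subunit that Myc uses as a cofactor, read 3035 and 3174 in GFP, 4868 and 4448 with CapH2, 4771 and 3970 with Smc2, and 5360 and 5954 with Smc1. Every knockdown array was above both control arrays, and the Smc1 change of 0.86 (SE 0.152, adjusted p = 0.00776) was called. Usp28, which removes ubiquitin from Myc, was the third of those called lower with Smc1 (-1.18, SE 0.347, adjusted p = 0.0496). It was named after its values were seen.

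**Figure D5:**
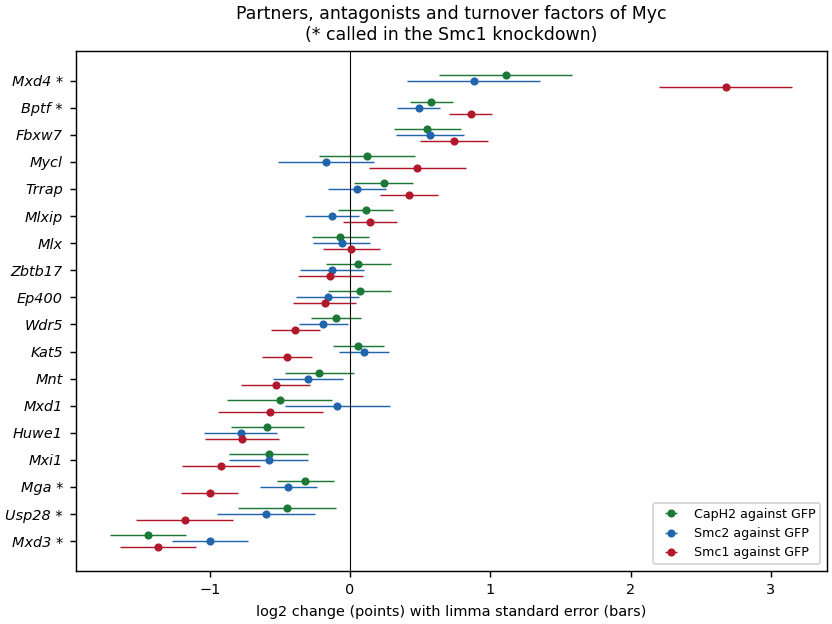
Log2 change against GFP (horizontal axis) of 18 genes that partner, oppose, assist or degrade Myc, for CapH2 (green), Smc2 (blue) and Smc1 (red), with limma standard errors and stars for genes called with Smc1. Mxd4 is farthest right for Smc1, at 2.68, and Mxd3 is left of 0 in all 3 knockdowns at -1.44, -1.0 and -1.37.

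The Mxd4 promoter window also holds CACGTG and is shown for comparison with the members above. The letters lie 219 bases before the start in the RefSeq window on GRCm38.p6, in chr5:34187897-34187956 on the minus strand.
Mxd4: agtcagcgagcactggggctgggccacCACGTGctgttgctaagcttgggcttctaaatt
Of the 18 genes, 5 have CACGTG in their window (27.8%), beside 8.09% of all genes listed.

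Among 31 further growth genes known to be bound by Myc, 25 were tested and 21 had a Smc1 change below 0, beside 47.7% of all genes, with a median of -0.18. There was 1 call against GFP (4%), beside 14% of all genes. Ccnd2, a cyclin that drives cell cycle entry, was the gene called, and it rose: it read 166.5 and 270.3 in GFP, 730.6 and 309.7 with CapH2, 587.8 and 416.6 with Smc2, and 1124 and 1079 with Smc1. All knockdown arrays were above both control arrays, with the Smc1 arrays highest (2.29, SE 0.372, limma adjusted p = 0.00584). Mthfd2, a mitochondrial enzyme of folate metabolism, was called only against the condensin knockdowns (-1.35, SE 0.248, adjusted p = 0.0139), after reading 1527 and 1054 in GFP, 1997 and 1457 with CapH2, 2436 and 1440 with Smc2, and 758.7 and 634.3 with Smc1. The Smc1 arrays were below all 6 others.

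The calls on these further genes rested on single arrays as well. Without GFP replicate 1 each of the 10 changes called against GFP in the 3 further lists was uncalled (limma adjusted p = 0.0687 to 0.188), and without Smc1 replicate 1 each was uncalled except that of Ddx52 (0.0619 to 0.334). With the Actb ratio as a covariate the Usp28 change was -0.44 (adjusted p = 0.452). Against the condensin knockdowns the 6 changes named were uncalled without Smc1 replicate 1 (0.0689 to 0.303), and without Smc1 replicate 2 that of Ddx52 was still called.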

How the data were processed

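The authors deposited intensity values on a linear scale for 44903 probe sets. For the probe summary, the method was not given in the sources used here. Trimmed means (2% trimmed) of 488.9 to 490.0 show arrays scaled to a common level, array medians were 62.5 to 74.5, and no further normalization was added. Probe sets were named from the platform annotation: 34771 had 1 symbol, 926 had several and 9206 had none, and 34554 matched the GRCm38.p6 gene table by gene identifier.

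The brightest probe set with 1 symbol stood for each of 18140 genes. Genes above the array median on at least 2 of 8 arrays were tested (12394). All 8 arrays were fitted on log2(intensity + 16) in R 4.3.3 with limma 3.58.1 (group means, eBayes with trend, 4 degrees of freedom from the arrays and 5.97 from the prior, Benjamini-Hochberg over all genes tested) in 5 comparisons. The fit was tested on simulated data. Errors mix differences between hairpins (CapH2, Smc2) with those between replicates (Smc1, GFP), and 2 arrays per group limit the precision. Percents of a control level are 2 to the power of the log2 change.

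The members and lists were chosen with earlier results of these data known. Every member may be named. All 8 arrays are given for Myc, Mycn, Max, called members and, per role, the 2 largest Smc1 changes, with Tsr1 and Pes1 added, and from other lists at most 4 called genes per comparison. Alternatives were 21 settings of pseudocount, normalization, filter, trend, probe set, arrays and covariates. Promoter windows were from RefSeq.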

Additional observations from a re-analysis of the deposited data

Results flagged for a closer look

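The Nip7 effect differed between knockdowns: its change against GFP was -0.49 with Smc1 and 0.05 and 0.14 with CapH2 and Smc2, and the test of the difference between Smc1 and their mean gave -0.59 (limma adjusted p = 0.0342, SE 0.141). Its other probe set changed by -0.97, -0.23 and -0.11. The call was lost without any single array other than Smc2 hairpin 2. It was also lost without the filter, without the intensity trend or with only the groups compared.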

How the results depend on the processing

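In the Smc1 comparison with GFP 1 member was called, Brix1. The count was 0 without the intensity trend, 5 with only the groups compared and 3 with the Actb ratio as a covariate. The Brix1 call was also lost without either Smc1 or either GFP array. With the mean of all probe sets the 1 call was not Brix1. With the replicate block, a term for the numbers that Smc1 and GFP share, 1 member and 1366 genes were called, beside 1734. The Smc1 and GFP replicate differences correlated at 0.0667 across genes. With 2 arrays per group this cannot show whether arrays of the same number were handled together. For Smc2 against GFP the count of 0 became 1 with the Actb ratio, beside 0.428% of all genes. The member median there ran from -0.09 to 0.42 when 1 array was left out. Against the condensin knockdowns the count of 1 became 2 with median centring or the mean of all probe sets, 0 without the filter, without the trend or with only the groups compared, 16 with the Actb ratio and 0 to 7 when an array was left out. In settings chosen after the data were seen, leaving out CapH2 hairpin 3 with Smc2 hairpin 1 gave 5 members for Smc1 and 0 against the condensin knockdowns, and leaving out CapH2 hairpin 4 with Smc2 hairpin 2 gave 5 for Smc1, 6 for CapH2, 6 for Smc2 and 14 against the condensin knockdowns. Fits without such a pair leave 1 array in the CapH2 and 1 in the Smc2 group. In both, more of all genes were called than in the main fit for Smc1 and against the condensin knockdowns. Without CapH2 hairpin 4 and Smc2 hairpin 2 this also held for CapH2 and Smc2. Counts from fits with arrays left out are therefore not compared. The Smc1 member median was -0.13 in both pair fits, as in the main fit. The share of all genes called moved in other settings too. In Smc1 against GFP it was 14% in the main fit, 21.8% with only the groups compared and 4.61% with the Actb ratio. Against the condensin knockdowns it was 7.75% in the main fit, 4.82% with only the groups compared and 13.3% with the Actb ratio. There it was 6.85% with median centring, 5.55% with the mean of all probe sets and 3.27% without the filter. Without the trend it was 10.5% and 5.28% in these comparisons. The causes were not tested. No named change with a call turned its sign in any of the 21 settings. Median centring moved the median of all genes in Smc2 against GFP from -0.01 to 0.10, and the members stayed 0.17 above it. With 2 arrays per group, small changes such as most of those seen here are hard to detect. Signal near the array median limits Myc and Mxd4 in GFP, and Mxd4 also on CapH2 hairpin 4 and both Smc2 arrays.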
